A study of Homo sapiens with 6 samples.

Results

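Small nucleolar RNAs (snoRNAs) and small Cajal body RNAs (scaRNAs) were taken from the expression table as the rows whose symbol began with SNORA, SNORD or SCARNA followed by a number and whose mean over the 6 libraries was at least 0.5 FPKM (fragments per kilobase of transcript and per unit of mapped fragments, a level scaled to the length of the RNA). Of 52807 rows, 74 met the rule. They comprised 31 SNORA rows, 40 SNORD rows and 3 SCARNA rows. The members were chosen by their mean FPKM over these libraries, so their levels are described here and not tested.

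All libraries came from NCI-H460, an established large cell lung cancer line, infected with a lentivirus carrying KRAB-dSpCas9, a Cas9 without cutting activity fused to a repressor domain (CRISPR interference). The control group carried a nontargeting guide (sgNTG), and 2 further groups carried a guide against CPT1 (sg1 and sg2), with 2 libraries in each group. CPT1 is carnitine palmitoyltransferase 1, which links long-chain fatty acids to carnitine for entry into mitochondria. All 3 groups carried the vector and were kept in puromycin at 2 μg/ml from 48 h after infection, so all are drug-selected pools of infected cells. Nothing in the labels ties the libraries of 1 group to different cultures, and each p-value below therefore rests on variation among libraries that could be purely technical. The rows of the targeted CPT1 genes were not analysed here, and the knockdown was therefore not checked.

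SnoRNAs are short RNAs of the nucleolus that pair with ribosomal RNA. Box C/D snoRNAs (SNORD) carry the methyltransferase fibrillarin to a nucleotide for 2′-O-methylation, and box H/ACA snoRNAs (SNORA) carry the pseudouridine synthase dyskerin, while scaRNAs direct the same changes in spliceosomal RNAs within Cajal bodies. Most human snoRNAs are cut out of introns of host genes, many of which encode ribosomal proteins or other parts of the translation machinery. Mature snoRNAs and scaRNAs have no poly(A) tail, whereas these libraries were made with mRNA capture beads, which bind poly(A) RNA. The values therefore come from whatever part of these RNAs was carried through that step, and reads of a snoRNA cannot be told apart from reads of the host intron around it before splicing.

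Members of high level, some that later headed a comparison and a relative of each of 2 of them are shown first, because their sequences carry the marks of their class. The sequences are those of GENCODE 29 (GRCh38), 5′ to 3′, written as DNA. For box C/D RNAs the capitals mark box C (TGATGA within the first 25 bases) and box D (CTGA within the last 15 bases). SNORD14A (chr11:17074654-17074744, minus strand, an intron of RPS13) and SNORD14E (chr11:123058077-123058161, minus strand, an intron of HSPA8) are copies of the U14 RNA, SNORD100 (chr6:132816802-132816877, plus strand) lies in an intron of RPS12, SNORD59A (chr12:56645027-56645101, minus strand) in an intron of ATP5F1B, and SNORD36C (chr9:133350847-133350912, plus strand) overlaps an exon of a noncoding transcript of RPL7A. SNORD36C is shown as a member that held box D and not the letters of box C.
SNORD14A: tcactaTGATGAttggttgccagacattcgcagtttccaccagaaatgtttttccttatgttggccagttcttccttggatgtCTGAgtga
SNORD14E: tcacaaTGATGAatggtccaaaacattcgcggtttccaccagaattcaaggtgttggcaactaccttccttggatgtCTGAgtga
SNORD100: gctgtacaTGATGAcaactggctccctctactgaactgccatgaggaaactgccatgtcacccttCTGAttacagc
SNORD59A: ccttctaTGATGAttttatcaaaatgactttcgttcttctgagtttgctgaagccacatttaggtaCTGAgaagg
SNORD36C: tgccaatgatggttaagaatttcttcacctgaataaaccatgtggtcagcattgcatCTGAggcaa

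For H/ACA RNAs the capitals mark box H (ANANNA in the central part of the RNA) and the ACA within the last 8 bases. SNORA33 (chr6:132817219-132817348, plus strand) shares the host RPS12 with SNORD100, SNORA3B (chr11:8685439-8685569, plus strand) lies in RPL27A, SNORA66 (chr1:92840719-92840851, plus strand) in RPL5, and SNORA2A (chr12:48656648-48656782, minus strand) and SNORA2B (chr12:48667457-48667593, minus strand) in separate introns of KANSL2, which encodes a subunit of a histone acetyltransferase complex.
SNORA33: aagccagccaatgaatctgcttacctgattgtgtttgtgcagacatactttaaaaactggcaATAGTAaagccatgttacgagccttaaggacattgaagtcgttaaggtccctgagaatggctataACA
SNORA3B: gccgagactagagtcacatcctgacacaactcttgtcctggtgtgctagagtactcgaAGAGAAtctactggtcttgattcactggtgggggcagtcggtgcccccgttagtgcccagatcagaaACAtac
SNORA66: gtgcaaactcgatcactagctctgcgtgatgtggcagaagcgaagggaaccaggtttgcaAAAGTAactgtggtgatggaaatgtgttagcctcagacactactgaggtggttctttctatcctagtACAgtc
SNORA2A: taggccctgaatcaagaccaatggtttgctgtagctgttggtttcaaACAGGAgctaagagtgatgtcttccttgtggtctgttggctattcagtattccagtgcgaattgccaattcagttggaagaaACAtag
SNORA2B: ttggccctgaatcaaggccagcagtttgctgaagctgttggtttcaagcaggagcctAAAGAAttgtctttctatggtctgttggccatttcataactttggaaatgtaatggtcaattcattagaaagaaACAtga

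The letters of the boxes divided most of the members as their symbols did. Among the 38 SNORD members of 60 to 300 nucleotides with a sequence, 35 held box D (92.1%) and 26 held both box C and box D (68.4%). Among 28 SNORA members, 26 held box H and the ACA together (92.9%) and none held box C or box D. In 3796 other small RNA genes of the same length range (snRNA and misc_RNA), none held C with D and 3.61% held H with ACA. Box H alone is a loose pattern that 65.4% of those other RNAs held. The ACA alone was held by 96.4% of SNORA members, 7 of the 38 SNORD members (18.4%) and 4.77% of the other RNAs. The pairs, C with D and H with ACA, therefore set the classes apart more than H or the ACA alone. One SNORD member (2.63%) also held H with ACA, and only the transcript strand was searched. A match is a description of the letters in these windows and not a functional site.

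The rows that met the rule were a small share of those listed. The table held 553 rows of the 3 classes, of which 189 were listed at 0 in all 6 libraries and 290 were above 0 in some library but below the rule, leaving 74 (13.4%). No member was at 0 in any library, and 47 members had a mean of at least 1 FPKM. Just inside the threshold, SNORD37 averaged 0.518, 1 SNORA75 row 0.529 and SNORD3B-1 0.529 FPKM. Just outside, SNORA7B averaged 0.468 and 2 SNORA72 rows averaged 0.468 and 0.474 FPKM. For SNORD37 the libraries ran from 0.191 to 0.901 FPKM, and for SNORA7B from 0.0649 to 0.793 FPKM, so the rows on the 2 sides of the threshold had overlapping ranges.

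The table holds no read counts, but its low values give a measure of coverage. In each library the same smallest frequent value recurred, between 0.166 and 0.194 FPKM, in 98 to 110 rows whose median annotated length was 92 to 99 nucleotides, and exact multiples of it were also frequent. This step was the same for RNAs of different length, so FPKM did not scale with length among the shortest RNAs. The members' means amounted to 2.85 to 46.8 steps, with a median of 7.52. Of the rows at the step with a known length, 95.8% to 100% were under 170 nucleotides. The members reach 758 nucleotides, and for the longer ones the step is not a measure of single fragments. Steps in sgNTG (0.194 and 0.166 FPKM) spanned those of the 4 libraries with a CPT1 guide (0.170 to 0.183 FPKM), so coverage judged in this way did not separate the groups. The 2 libraries of a group differed by a median of 0.277 (absolute log2 difference of FPKM + 1) over the members, against 0.123 over 6989 other rows with means in the same range.

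Box C/D RNAs held most of the highest levels. SNORD14A, of the U14 family that acts in the maturation of 18S ribosomal RNA, was the member of highest mean, at 9.36 and 7.49 FPKM in sgNTG, 5.89 and 7.09 FPKM in sg1, and 10.9 and 9.42 FPKM in sg2. The sg1 libraries were the lowest pair and the sg2 libraries the highest pair. SNORD14E, the U14 copy hosted by the heat shock cognate gene HSPA8, had 77.4% of aligned positions identical to SNORD14A and lay between 1.29 and 1.56 FPKM in all 6 libraries. SNORD100 was the steadiest of all members, at 5.96 and 5.76 FPKM in sgNTG, 6.45 and 5.70 FPKM in sg1 and 5.53 and 6.18 FPKM in sg2, a ratio of highest to lowest library of 1.17. SNORD36C was nearly as even, from 3.72 to 4.49 FPKM. The groups overlapped for SNORD100. For SNORD36C both sg2 libraries (4.49 and 4.23 FPKM) lay above all libraries of sgNTG and sg1, within that narrow range.

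The other box C/D members of high mean were SNORD59A (5.50 FPKM), SNORD19C (4.53), SNORD69 (4.46), SNORD104 (4.26), SNORD19 (3.87), SNORD101 (3.75) and SNORD51 (3.37). SNORD19, SNORD19C and SNORD69 all lie in introns of GNL3, which encodes the nucleolar GTPase nucleostemin, and SNORD51 lies in EEF1B2, a translation elongation factor subunit. SNORD101 had 3.08 and 3.18 FPKM in sgNTG, 3.44 and 2.44 in sg1, and 6.42 and 3.96 in sg2. Both sg2 libraries lay above the other 4. The U3 RNAs SNORD3A and SNORD3B-1, which act in early cleavage of the ribosomal RNA precursor and have genes of their own, averaged 1.20 and 0.529 FPKM. They were identical at 694 of 758 aligned positions (91.6%), so the division of reads between them is uncertain. Gaps count as positions here, and the annotated lengths were 699 and 758 nucleotides, so the difference in length lowers this share.

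Among H/ACA members SNORA33 led, at 5.14 and 6.87 FPKM in sgNTG, 5.57 and 4.76 FPKM in sg1 and 5.11 and 8.15 FPKM in sg2, with overlapping groups. SNORA3B averaged 3.51 FPKM, SNORA20 in the chaperonin gene TCP1 3.36, SNORA80B in the ornithine decarboxylase gene ODC1 3.29, SNORA31 in TPT1 3.22 and SNORA5A in TBRG4 2.98 FPKM. SNORA73B (also known as U17, an H/ACA RNA that acts in 18S ribosomal RNA processing) averaged 2.59, SNORA66 2.53, SNORA65 in RPL12 2.19 and SNORA51 2.00 FPKM. SNORA51 lies in NOP56 and SNORD11 (2.83 FPKM) in NOP58, both of which encode core proteins of the box C/D particle. SNORA31 ranged from 1.29 FPKM in one sgNTG library to 5.15 FPKM in one sg2 library, while the partner libraries were at 3.58 and 2.78 FPKM, so its libraries differed as much within groups as between them.

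The 3 scaRNA rows had a median mean level of 0.972 FPKM, below 1.25 FPKM for SNORA and 1.79 FPKM for SNORD members, although in sg1 replicate 1 their median (1.13 FPKM) was above that of SNORA (1.09 FPKM). SCARNA4, a guide for U2 spliceosomal RNA, had 1.71 and 0.677 FPKM in sgNTG, 1.13 and 0.781 in sg1, and 1.24 and 1.48 in sg2. SCARNA9, also a guide for U2, had 0.655 and 0.597 FPKM in sgNTG, 1.43 and 1.31 in sg1, and 1.12 and 0.722 in sg2. SCARNA6, a guide for U5, had 0.334 and 0.370 FPKM in sgNTG, 0.785 and 0.382 in sg1, and 0.897 and 0.947 in sg2. For SCARNA9 and SCARNA6 both sgNTG libraries lay below all 4 others, and for SCARNA4 the groups overlapped. Of all rows tested, 7.21% had both sgNTG libraries below all 4 others. Both sgNTG values of SCARNA6 are under the threshold of 0.5 FPKM, and it met the rule only through the guide groups. Its place among the members is therefore not independent of this difference.

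**Figure D1:**
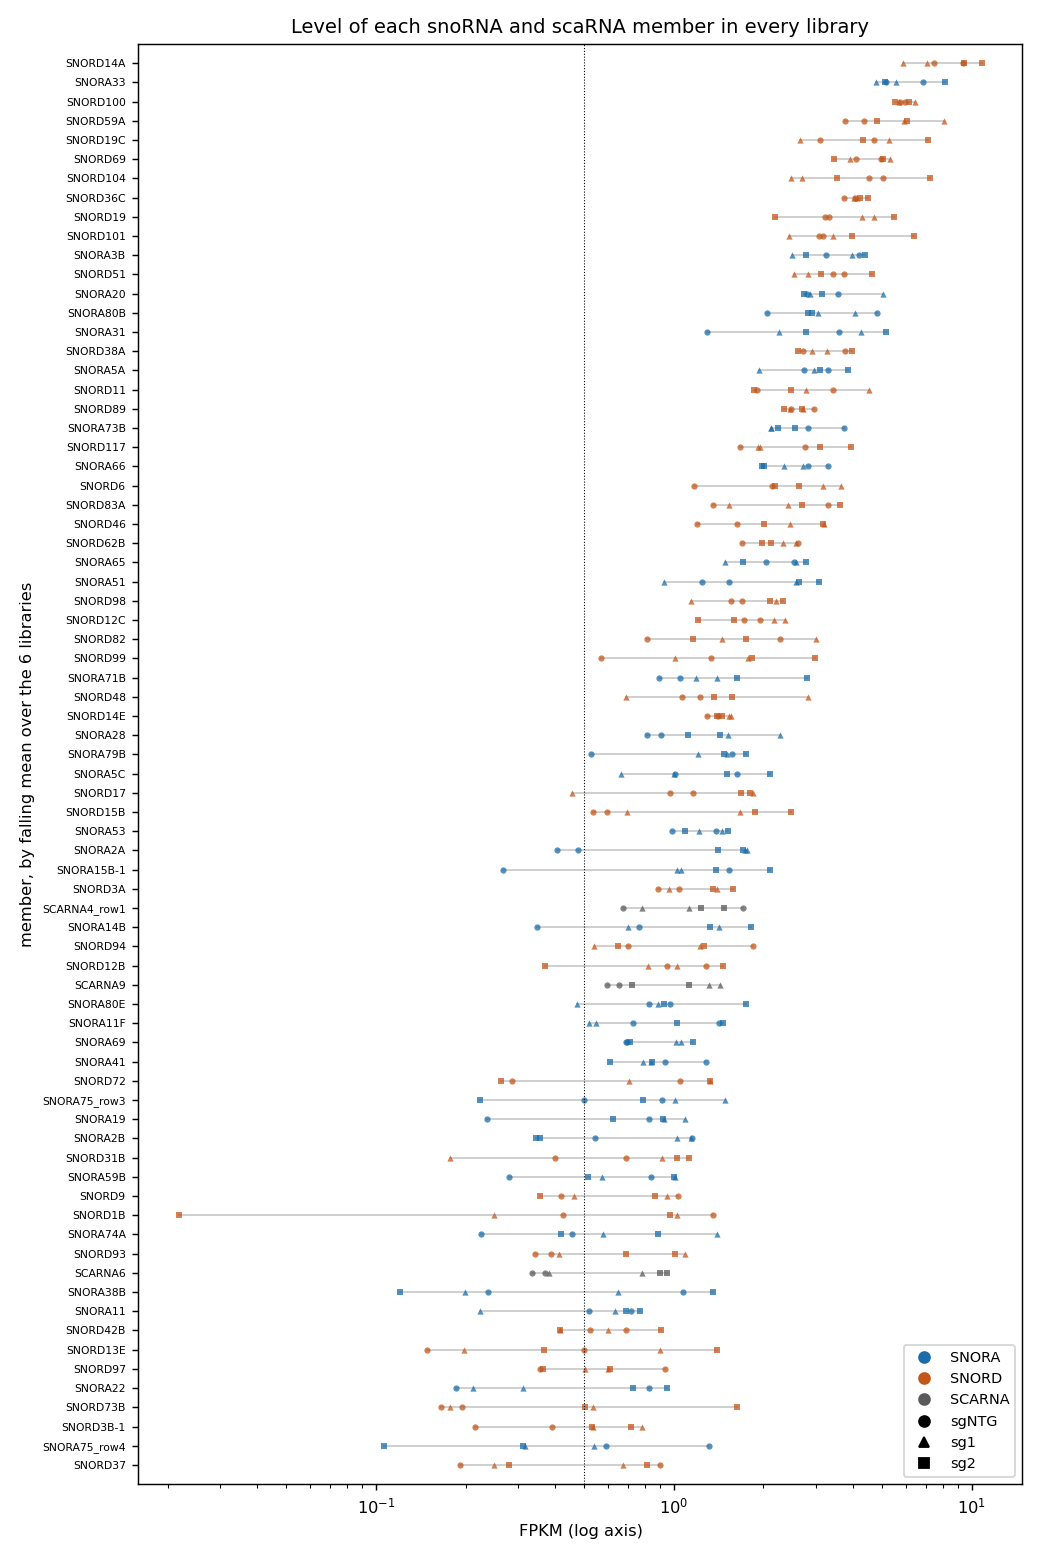
FPKM (log axis) of each of the 74 members in every library, ordered by mean, with color for the class and marker shape for the group. SNORA75 and SCARNA4 are listed in several rows of the table, and the suffix gives which row is plotted. Libraries of neighbouring members overlap throughout, and the range widens toward the dotted threshold at 0.5 FPKM.

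The order of the levels was resolved only coarsely. All 73 pairs of neighbours in the order had overlapping ranges over the libraries. The ratio of a member's highest to its lowest library had a median of 2.83 and was under 2 for 19 members. It reached 62.2 for SNORD1B, which was listed at 0.0218 FPKM in 1 sg2 library and at 0.969 FPKM in the other. The value of 0.0218 FPKM is below the step of its library (0.183 FPKM), so this ratio is not a measured spread. The 10 highest members held 34.8% of the summed level of all 74.

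The H/ACA class lay below the box C/D class in every library. The median of the 31 SNORA members was 0.969 and 1.07 FPKM in sgNTG, 1.09 and 1.21 in sg1, and 1.47 and 1.41 in sg2. The median of the 40 SNORD members was 1.32 and 1.52 FPKM in sgNTG, 1.74 and 1.88 in sg1, and 1.99 and 1.85 in sg2. The ratio of SNORA to SNORD medians was 0.732 and 0.708 in sgNTG, 0.628 and 0.643 in sg1, and 0.741 and 0.763 in sg2, with a mean of 0.702. For both classes the 2 sgNTG medians were the lowest, although for SNORA the second sgNTG library and the first sg1 library differed by little. This order is not independent of the rule, which 7 of all members met only through the guide groups. SNORA members were longer (median 134 nucleotides against 78.5) and had similar GC content (46.7% against 44.3%), and since the FPKM of the shortest RNAs did not follow their length, the part of length in the ratio was not tested.

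**Figure D2:**
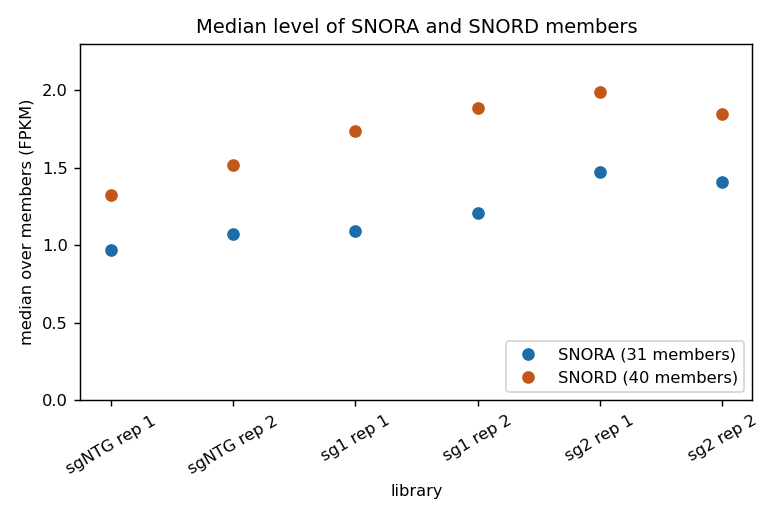
Median FPKM over the 31 SNORA members and the 40 SNORD members in each of the 6 libraries, on an axis that starts at 0. SNORD medians (1.32 to 1.99 FPKM) lie above SNORA medians (0.969 to 1.47 FPKM) in every library.

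Of the 74 members, 71 matched a single gene of GENCODE 29, and the 2 SNORA75 rows and the SCARNA4 row did not. A host gene on the same strand enclosed 68 of them, in 59 distinct hosts. For 54 members the host had only intron at that place, for 14 the member overlapped an exon of some host transcript, and SNORD3A, SNORD3B-1 and SNORA11F had no host. In 2 of the 14 the exon belonged to a protein-coding transcript (SNORA31 in TPT1 and SNORD42B in RPL23A), where reads of the mRNA may enter the row. Another 5 members had a gene on the opposite strand (SNORA74A, SNORA22, SNORA66, SNORA11F and SNORD97), and the use of strand in counting is not given in the sources used here, so reads of the 2 strands cannot be told apart. Whole sequences of SNORD62B, SNORA15B-1 and SNORA41 occur in a transcript of another gene, so their values are uncertain.

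Members in ribosomal protein genes had the highest median of the host groups, 2.50 FPKM over 16 members. Members in other protein-coding genes had a median of 1.34 FPKM (35 members), those in noncoding or pseudogene hosts 1.46 FPKM (11 members) and those in translation factor genes 0.828 FPKM (6 members). The host's own level was far higher in most cases: over the 36 members whose host was in the table, the host exceeded the member by a median factor of 53.0. The range ran from 0.0989 for SNORA15B-1 in the pseudogene CCT6P3 to 1341 for SNORD37 in EEF2, a translation elongation factor. Across these 36 members the levels of member and host had a Spearman rho of 0.19, and rho was 0.44 over 21 SNORA members and -0.19 over 14 SNORD members. These are descriptions over members that in part share a host and all share the 6 libraries. The remaining hosts, RPS13 and GNL3 among them, were not analysed here.

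Members of one host often had different levels. In RPS12 (mean 224 FPKM), SNORD100 and SNORA33 both averaged 5.93 FPKM and SNORD101 3.75 FPKM. In EEF1B2 (171 FPKM), SNORD51 averaged 3.37 FPKM and SNORA41 0.884 FPKM. In TBRG4 (30.8 FPKM), SNORA5A averaged 2.98 FPKM and SNORA5C 1.32 FPKM, and in ZFAS1 (109 FPKM), a noncoding RNA gene, SNORD12C averaged 1.83 FPKM and SNORD12B 0.985 FPKM. SNORD104 exceeded its noncoding host SNHG25, at 4.26 against 1.01 FPKM. In all, 16 members shared 7 hosts.

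**Figure D3:**
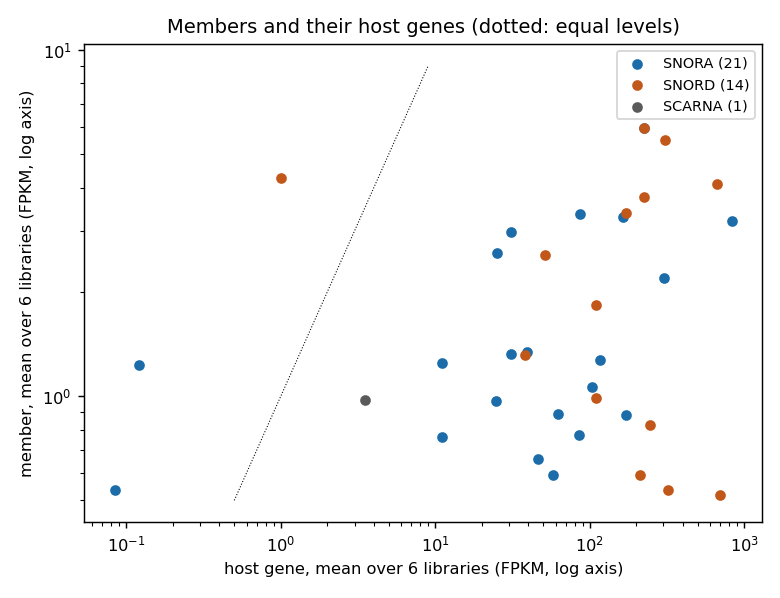
Mean FPKM of each member against that of its host gene over the 6 libraries, both axes logarithmic, for the 36 members whose host was in the table. Points right of the dotted line, where levels are equal, have a host above the member, and 3 points lie left of it (SNORD104, SNORA15B-1 and SNORA22).

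For the question whether the CPT1 guides altered these RNAs, all 10754 rows with a mean of at least 0.5 FPKM were tested with limma on log2(FPKM + 1), and p-values were adjusted over all of them by the Benjamini-Hochberg method with a threshold of 0.05. None of the 74 members passed in any comparison. By that test 0.0093% of all rows passed for sg1 against sgNTG, 0.0186% for sg2 against sgNTG, 0.0093% for both guides against sgNTG and 0.66% for sg2 against sg1, so 0 of 74 is near the background. At an unadjusted p under 0.05 there were 9 of the 74 members for sg1 and 15 for sg2. There were 14 for both guides and 13 for sg2 against sg1. Of all rows, 9.12%, 9.12%, 6.26% and 15.2% did the same, each time a smaller share than among the members. However, 7 members met the rule only through the guide groups. The counts against sgNTG are therefore not independent of the rule, and the excess was not tested. The median standard error of a member's log2 difference for 1 guide against sgNTG was 0.21, against 0.10 over all rows. In bulk RNA a change in the number of cells of a kind and a change in RNA per cell cannot be told apart. The comparisons with sgNTG share its 2 libraries, and their values are given side by side.

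SNORA2A, the H/ACA RNA of KANSL2 printed above, had the lowest p of all members against sgNTG. It was at 0.477 and 0.405 FPKM in sgNTG, 1.76 and 1.74 FPKM in sg1, and 1.70 and 1.41 FPKM in sg2. Both sgNTG libraries lay far below the other 4, which lay close together. Its sgNTG mean of 0.441 FPKM is below the threshold of the rule, which it met only through the guide groups, so its place among the members is not independent of this difference. The log2 difference was 0.93 ± 0.12 (SE, limma, adjusted p = 0.144) for sg1 and 0.82 ± 0.12 (adjusted p = 0.148) for sg2. For both guides together it was 0.88 ± 0.10 (limma, adjusted p = 0.189). SNORA2B, its relative in another intron of the same host with 76.1% identity, did not follow it: it had 1.15 and 0.545 FPKM in sgNTG, 1.03 and 1.14 FPKM in sg1, and 0.355 and 0.344 FPKM in sg2. The host KANSL2 had 9.14 and 13.3 FPKM in sgNTG, 12.8 and 10.4 FPKM in sg1 and 11.0 and 9.85 FPKM in sg2, with overlapping groups. SNORA2A's sgNTG values amount to a few steps of coverage, and the part of this low coverage in the difference was not tested.

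With guide sg1, SNORD59A and SNORD6 followed SNORA2A among the members above sgNTG. SNORD59A, in the gene of the ATP synthase beta subunit, had 3.76 and 4.36 FPKM in sgNTG, 5.94 and 8.08 in sg1, and 6.09 and 4.80 in sg2, a log2 difference of 0.65 ± 0.16 for sg1 (SE, limma, adjusted p = 0.355). SNORD6 had 1.16 and 2.13 FPKM in sgNTG, 3.18 and 3.63 in sg1, and 2.19 and 2.64 in sg2, a log2 difference of 0.76 ± 0.18 for sg1 (limma, adjusted p = 0.355). Neither difference passed the test, and in both RNAs the sg1 and sg2 libraries all lay above sgNTG. Below sgNTG the members of lowest p were SNORA73B, SNORD104 and SNORD14A. SNORA73B had 3.72 and 2.82 FPKM in sgNTG, 2.13 and 2.11 in sg1, and 2.54 and 2.24 in sg2, a log2 difference of -0.44 ± 0.12 for sg1 (limma, adjusted p = 0.409). Its host SNHG3, a noncoding RNA gene, lay between 24.4 and 26.3 FPKM in all libraries. SNORD104 had 4.52 and 5.03 FPKM in sgNTG, 2.70 and 2.47 in sg1, and 7.27 and 3.54 in sg2, and SNORD14A differed by -0.33 ± 0.13 for sg1 (limma, adjusted p = 0.530).

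With guide sg2, SNORD15B and SNORA71B followed SNORA2A. SNORD15B, in an intron of RPS3, had 0.537 and 0.599 FPKM in sgNTG, 0.696 and 1.66 in sg1, and 2.47 and 1.87 in sg2. Its log2 difference for sg2 was 1.01 ± 0.22 (SE, limma, adjusted p = 0.355), the largest of any member in any comparison. SNORA71B had 1.05 and 0.894 FPKM in sgNTG, 1.40 and 1.18 in sg1, and 1.63 and 2.80 in sg2, a log2 difference of 0.68 ± 0.18 for sg2 (limma, adjusted p = 0.408). For SNORD15B and SNORA71B all libraries with a CPT1 guide lay above sgNTG. Below sgNTG were SNORA66, one SNORA75 row and SNORA73B. SNORA66 had 3.30 and 2.82 FPKM in sgNTG, 2.71 and 2.34 in sg1, and 1.98 and 2.00 in sg2, a log2 difference of -0.44 ± 0.11 for sg2 (limma, adjusted p = 0.388). The SNORA75 row had 0.590 and 1.31 FPKM in sgNTG, 0.539 and 0.316 in sg1, and 0.107 and 0.312 in sg2. Its means of 0.427 FPKM in sg1 and 0.209 FPKM in sg2 are below the threshold of 0.5 FPKM. It met the rule only through sgNTG. SNORA75 is listed in 7 rows of the table, and the genes behind them could not be told apart here.

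With both guides pooled against sgNTG, SNORA2A, SNORD15B and SNORD46 had the lowest p above sgNTG. SNORD46 had 1.20 and 1.63 FPKM in sgNTG, 2.45 and 3.19 in sg1, and 3.16 and 2.01 in sg2, a log2 difference of 0.61 ± 0.16 (SE, limma, adjusted p = 0.698). SNORA73B, SNORA66 and the same SNORA75 row had the lowest p below sgNTG, with log2 differences of -0.39, -0.32 and -0.55. The SNORA75 row met the rule only through sgNTG, so its place among the members is not independent of its difference.

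**Figure D4:**
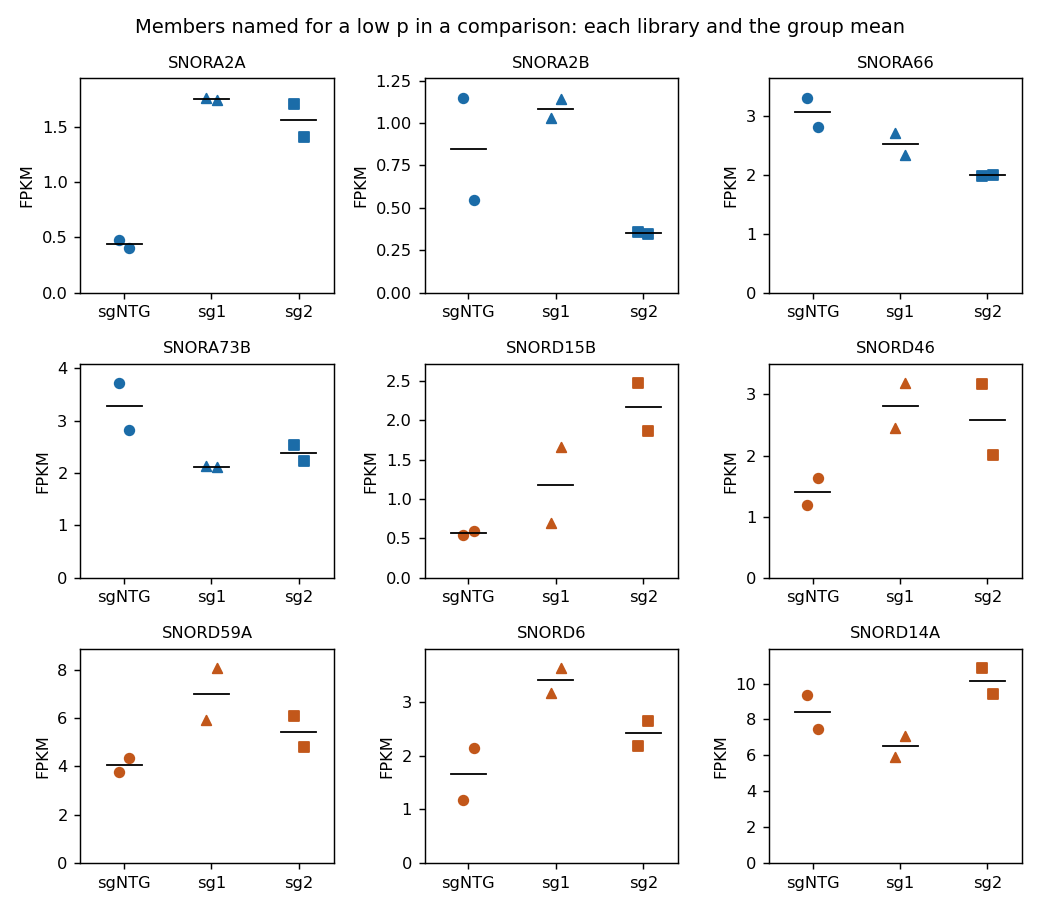
FPKM of 9 members named for a low p, in each library (points) with the group mean (line), on axes that start at 0. Both sgNTG libraries lie on one side of all 4 others for SNORA2A, SNORA66, SNORA73B, SNORD15B, SNORD46, SNORD59A and SNORD6. No member passed the adjusted test. The members were picked for a low p, so such a separation follows in part from the choice. Over all rows, 7.21% lay wholly above sgNTG and 5.13% wholly below for both guides. SNORA2A met the rule only through the guide groups.

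Between the 2 CPT1 guides, SNORD14A had the lowest adjusted p of any member in any comparison. Its log2 difference, sg2 minus sg1, was 0.57 ± 0.13 (SE, limma, adjusted p = 0.120). SNORD117 had 2.75 and 1.67 FPKM in sgNTG, 1.94 and 1.92 in sg1, and 3.92 and 3.10 in sg2, a log2 difference of 0.61 ± 0.18 (limma, adjusted p = 0.193). SNORA5C had 1.01 and 1.63 FPKM in sgNTG, 0.999 and 0.663 in sg1, and 2.11 and 1.51 in sg2 (log2 difference 0.62 ± 0.19). For both the sg2 libraries lay above those of sg1, while sgNTG overlapped sg1 for SNORD117 and sg2 for SNORA5C. Lower in sg2 were SNORD12C, SNORA2B (log2 difference -0.63 ± 0.18) and another SNORA75 row (-0.59 ± 0.23). SNORD12C had 1.95 and 1.72 FPKM in sgNTG, 2.17 and 2.36 in sg1, and 1.59 and 1.21 in sg2. Its log2 difference was -0.45 ± 0.12 (limma, adjusted p = 0.166). SNORA2B had an sg2 mean of 0.350 FPKM, below the threshold of 0.5 FPKM, and met the rule only through the other groups.

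The class medians lay above 0, and above the median of all rows, in every comparison. Of the members, 7 had an sgNTG mean under 0.5 FPKM and met the rule only through the guide groups. The medians against sgNTG are therefore not independent of the rule, and they are described and not tested. For sg1 against sgNTG the median log2 difference was 0.10 over SNORA and 0.03 over SNORD members, where the median of all rows was 0.0066. For sg2 against sgNTG it was 0.16 over SNORA and 0.11 over SNORD members (all rows 0.0089), and for both guides 0.05 and 0.14 (all rows 0.0074). For sg2 against sg1 it was 0.11 and 0.06 (all rows 0.0046). The 3 SCARNA rows had medians of 0.22, 0.23, 0.36 and 0.27 in the same order of comparisons. Of all 74 members, 54.1% lay above 0 for sg1, 71.6% for sg2, 62.2% for both guides and 54.1% for sg2 against sg1, where 52.0%, 53.1%, 53.2% and 51.3% of all rows did. Single libraries moved the class medians: without sgNTG replicate 1 the SNORA median became -0.12 for sg1, 0.07 for sg2 and -0.04 for both guides, and without sg1 replicate 1 the SNORD median for sg1 became 0.17.

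Members whose libraries did not overlap between groups were more often above sgNTG than below it. For sg1, 18 members lay wholly above sgNTG and 9 wholly below (24.3% and 12.2%), against 21.5% and 18.4% of all rows. For sg2, 25 lay above and 6 below (33.8% and 8.11%), against 22.3% and 17.8%. The SNORD members made up 17 of the 25 above (42.5% of their 40) and 1 of the 6 below, SNORD12C, while SNORA members were 6 above and 5 below. For both guides, 12 lay above and 4 below (16.2% and 5.41%), against 7.21% and 5.13% of all rows, and the SNORD members were 6 above and 0 below. For sg2 against sg1, 22 lay above and 14 below (29.7% and 18.9%), against 24.1% and 22.7%. The mean that chose the members covers all 6 libraries, and 7 members had an sgNTG mean under 0.5 FPKM, so that they met the rule only through the guide groups. These 7, SNORA2A among them, made up 5 of the 18 above sgNTG for sg1, 5 of the 25 for sg2 and 4 of the 12 for both guides. In the guide groups, 6 members had an sg1 mean and 4 an sg2 mean under 0.5 FPKM. The counts are therefore descriptions, and the difference between SNORD and SNORA members in them was not tested.

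**Figure D5:**
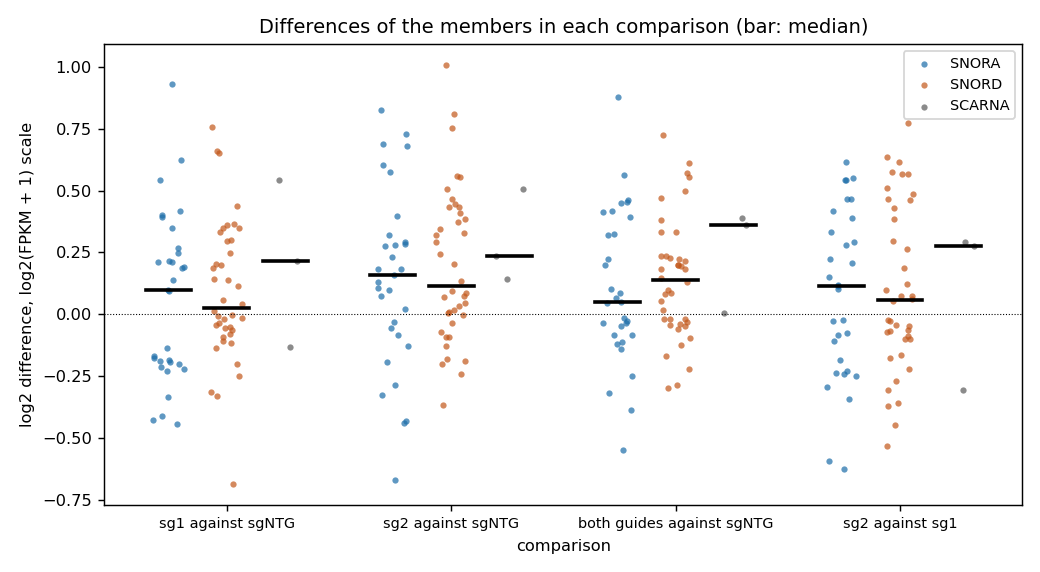
Log2 differences of the 74 members, on the log2(FPKM + 1) scale, in the 4 comparisons, with 1 point per member, color for the class and a bar at the class median. Points spread on both sides of 0 in each comparison, and SNORD15B at 1.01 for sg2 against sgNTG is the highest.

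The hosts of the members gave no called difference against sgNTG. Of 59 hosts, 28 were tested. For sg1 against sgNTG 24 of these 28 lay above 0 and for sg2 9 did, where 52.0% and 53.1% of all rows did. When sg2 was compared with sg1, 71 of all rows passed (0.66%). Only 7 of these were among the 6989 other rows with means in the members' range. Most hosts lay above that range, so 0.66% is not the share for rows of their level. For sg2 against sg1, 5 hosts were lower by limma, namely RPL23A (log2 difference -0.29, adjusted p = 0.0254), SLC25A3 (-0.29, adjusted p = 0.0342), EEF1B2 (-0.22, adjusted p = 0.0403), EEF2 (-0.20, adjusted p = 0.0403) and RPL12 (-0.23, adjusted p = 0.0444). Their members had log2 differences of 0.12 for SNORD42B in RPL23A, -0.02 for SNORA53 in SLC25A3, 0.39 for SNORD51 and -0.08 for SNORA41 in EEF1B2, 0.07 for SNORD37 in EEF2 and 0.10 for SNORA65 in RPL12, none of which passed. No row passed in this comparison, these 5 included, when low rows were kept, when the variance trend was dropped or when sg2 replicate 2 was left out, and 1 row passed without sg1 replicate 1. RPS12 itself was at 229 and 238 FPKM in sg1 and 213 and 211 FPKM in sg2 without passing the test (limma, log2 difference -0.14, adjusted p = 0.119), while its member SNORD101 had 0.63, SNORA33 0.28 and SNORD100 -0.04. Over 34 members with a tested host, the log2 differences of member and host had a Pearson r of 0.44 for sg2 against sg1. It was 0.20 for sg1 against sgNTG, 0.08 for sg2 against sgNTG and -0.018 for both guides. Spearman rho was 0.40, 0.09, 0.31 and 0.14 in the same order, so the order of the comparisons depends on the measure. These are descriptions over members that in part share hosts.

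Of the proteins that build and process these particles, those tested did not pass in any comparison. They were 2 of 4 listed box C/D core proteins, 2 of 4 H/ACA core proteins, 7 of 14 assembly factors, 6 of 11 Cajal body proteins and 8 of 11 factors of 3′ end trimming and decay, and the rest were not analysed here. Of the core box C/D proteins, the methyltransferase fibrillarin (FBL) was at 32.4 and 38.6 FPKM in sgNTG, 39.0 and 41.6 in sg1 and 36.0 and 35.0 in sg2, and SNU13 lay between 17.2 and 19.1 FPKM. Of the core H/ACA proteins, GAR1 had 8.29 and 8.56 FPKM in sgNTG, 9.84 and 9.61 in sg1 and 8.54 and 9.18 in sg2, and NOP10 lay between 45.5 and 50.5 FPKM. Among the assembly factors NOLC1 averaged 55.2 FPKM and RUVBL2 20.0 FPKM, and among the Cajal body proteins coilin (COIL) averaged 6.97 FPKM and the scaRNA-binding protein WRAP53 3.02 FPKM. In the trimming and decay list the exonuclease XRN2 averaged 33.8 FPKM and the debranching enzyme DBR1, which opens intron lariats, 4.09 FPKM. Of 8 noncoding host genes named GAS5 or SNHG, GAS5 had group means of 64.3, 70.9 and 70.6 FPKM in sgNTG, sg1 and sg2, and SNHG7 had 29.5, 37.4 and 30.4 FPKM (sg1 against sgNTG log2 difference 0.33 ± 0.05, limma, adjusted p = 0.166).

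Most other RNAs without a poly(A) tail were below the threshold of the members. Of 25 in the table, 6 were listed at 0 in all libraries, 16 had a mean under 0.5 FPKM and 3 were tested, all of them 7SL RNAs of the signal recognition particle. RN7SL2 rose in both guide groups, from 2.74 and 2.96 FPKM in sgNTG to 10.6 and 10.2 in sg1 and 7.42 and 9.03 in sg2 (limma, adjusted p = 0.0218 for sg1 and 0.0437 for sg2). No row passed against sgNTG, RN7SL2 included, with the replicate number as a block, without a filter on low values or without a variance trend. For sg2 none passed either with median-of-ratios or quantile scaling, with only the compared libraries in the fit, or when either sg1 library or sgNTG replicate 1 was left out. Whether the members' values moved with the carry-over of such RNAs was not tested.

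Few cell type markers were in the table. The epithelial keratin KRT18 lay between 87.4 and 101.5 FPKM and CDH1 between 0.00923 and 0.105 FPKM. The macrophage-associated genes CD68 (21.5 to 26.5 FPKM) and CD14 (8.26 to 11.9 FPKM) and the collagen gene COL3A1 (9.40 to 13.0 FPKM) were detected, while COL1A2 was listed at 0 in 5 of 6 libraries. The endothelial markers were not analysed here.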

How the data were processed

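RNA from 6 NCI-H460 libraries was sequenced from total RNA after mRNA capture, per the labels' protocols. The authors deposited 1 table of FPKM values, and per the submitters' processing notes STAR, StringTie and the hg38 build were used; the sources used here give no versions, annotation or strandedness. Read counts and depth are unknown, so no count test was run and no interval for counting error is given.

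Members and lists were chosen with earlier results of these data known. The log2 of the deposited FPKM values plus a pseudocount of 1 was fitted with limma 3.58.1 in R 4.3.3 (1 mean per group over all 6 libraries, variance trend, 3 residual degrees of freedom, two-sided) for 10754 rows with a mean of at least 0.5 FPKM. Another 10 repeated rows were left out. Simulated data were used to test the fit. Members were named by rule: the 10 SNORA, the 10 SNORD and all SCARNA rows of highest mean, the 3 members of lowest p on each side of 0 in each comparison, and the 3 rows on each side of the threshold. Other members were named after their values were seen, for a shared host or sequence. One host gene is not reported here. Loci, hosts and sequences came from GENCODE 29 (Biopython 1.88, pandas 2.3.3, Python 3.11.15). Alternatives covered filters, pseudocount, variance trend, scaling, the replicate block, the libraries fitted and each library left out. Same-numbered libraries of different groups did not deviate together (r = 0.063, -0.017 and 0.030 over 10754 rows), so the numbers were not used as pairs.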

Additional observations from a re-analysis of the deposited data

How the results depend on the processing

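No member passed the limma test under any alternative in any of the 4 comparisons, with the count at 0 throughout, the replicate block included; at an unadjusted p under 0.05 the block left 10 members for sg1, 18 for sg2, 14 for both guides and 14 for sg2 against sg1. None of the members named for a low p changed direction or side of the adjusted p threshold in 332 values, 1 per named member, comparison and alternative. These values come from the same few refits of the same libraries and are not independent. The direction of the members named for other reasons was not followed across refits. Over all rows, calls for sg2 against sg1 depended on the fit: 71 as reported, 115 with a mean of at least 1 FPKM, 5 with the replicate block, 0 with no filter or no variance trend, and 0 to 21 with each library left out. The medians moved, and the cause was not tested. With a pseudocount of 0.1 the SNORA median log2 difference was 0.16 for sg1 and 0.25 for sg2, and with a mean of at least 1 FPKM it was 0.22 for sg2. Over members that overlap no host exon, an alternative chosen after seeing the data, the SNORA median was -0.14 for sg1 and -0.014 for both guides, and the SNORD median was 0.13 for sg1 and 0.28 for sg2. Leaving out each library in turn gave SNORA medians from -0.12 to 0.12 for sg1, 0.075 to 0.19 for sg2, -0.039 to 0.17 for both guides and 0.051 to 0.11 for sg2 against sg1. For SNORD the ranges were 0.026 to 0.17, 0.11 to 0.24, 0.043 to 0.16 and 0.033 to 0.12 in the same order. The mean ratio of SNORA to SNORD medians, 0.702 as reported, was 0.824 with a threshold of 0.1 FPKM, 0.781 with 1 FPKM, 0.847 from mean log2 values, 0.731 without repeated symbols, 0.674 without host exons and 0.690 to 0.717 with each library left out. The number of libraries limits the precision, and the part of coverage in it was not tested.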
